A study of Mus musculus with 10 samples.

Results

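Smooth muscle cells (SMCs) sorted from mouse jejunum and colon were compared with the unsorted smooth muscle (SM) tissue of the same organs at the level of single transcript variants. The members are the variants whose share of their gene shifted in the same direction in both organs. A share is the FPKM of 1 variant as a percentage of the summed FPKM of all variants with the same gene symbol in that library, where FPKM is fragments per length of transcript and size of library. A shift is the share in SMCs minus the share in tissue, in percentage points. Genes entered with 2 or more variants in each organ's table and a summed level of 20 FPKM or more in all 4 libraries, which kept 1661 genes with 7472 variants of the 63676 variants that both tables hold. Of these 7472 variants, 5077 (67.9%) in 1486 genes shifted with the same sign in both organs, 1959 with opposite signs, and 436 had no shift in at least 1 organ.

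The 4 libraries were jejunal SMCs (JSMCs), jejunal SM tissue, colonic SMCs (CSMCs) and colonic SM tissue, with 1 library per condition. The SMCs were sorted by the eGFP of smMHC Cre-eGFP/+ mice, a transgene driven by the *Myh11* promoter, and many mice were pooled for each SMC library. The labels list the tissue libraries under Kit copGFP/+ mice, whereas the study's methods describe smMHC Cre-eGFP/+ mice. All mice were 4 weeks old on a C57BL/6 background. Sorting, mouse line, pooling and cell composition therefore separate SMCs from tissue together and cannot be told apart. Since no condition was sequenced more than once, no p-value is given, and the other organ was the only repeat of each comparison. The series holds 10 libraries in all, and those of interstitial cells of Cajal (ICC, from Kit copGFP/+ mice) and PDGFRα+ cells (from Pdgfra eGFP/+ mice) are given beside some members.

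*Myh11*, the smooth muscle myosin heavy chain, stood at 3773 FPKM in JSMCs against 3370 FPKM in jejunal SM tissue, and at 3807 FPKM in CSMCs against 3168 FPKM in colonic SM tissue. The 6 smooth muscle markers summed to 33359 FPKM in JSMCs and 49819 FPKM in CSMCs, against 18683 FPKM and 21166 FPKM in the matching tissues. The 23 markers of ICC, PDGFRα+ cells, neurons, glia, macrophages, endothelium, mesothelium, fibroblasts, epithelium and pancreas summed to 156 FPKM in JSMCs and 129 FPKM in CSMCs, against 1435 FPKM and 1780 FPKM in the tissues, and 19 of 23 were lower in JSMCs and 21 of 23 in CSMCs. Higher in JSMCs were *Epcam*, *Vil1*, *Cela2a* and *Pnlip*; the pancreatic gene *Cela2a* had 8.16 FPKM in JSMCs and was listed at 0 in CSMCs and both tissues. The library labelled jejunal PDGFRα+ cells stands apart, with 1677 FPKM of *Myh11* and 34.0 FPKM of *Pdgfra*, against 134 FPKM and 230 FPKM in the colonic one. The 23 dissociation and immediate early genes summed to 1533 FPKM in JSMCs and 1098 FPKM in CSMCs, against 585 FPKM and 414 FPKM in the tissues. Of these 23 genes, 5 were lower in JSMCs and 6 in CSMCs than in the matching tissue. The part of these differences in the shifts was not tested. Only *Dcn* of the 23 other markers passed the level rule, and it had no variant shifted by 10 points in both organs.

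Most mammalian genes make several transcripts. Alternative promoters change the first exon and sometimes the start of the protein, cassette exons are kept or skipped inside it, and alternative last exons change its end or the 3′ region that governs stability. Smooth muscle is a classical tissue for this, since its myosins, tropomyosins, caldesmon, vinculin and calcium channels all have forms that differ between contractile smooth muscle and other cells. A share can move without any change in the gene's level, and in a mixed tissue it also moves when cell types with other forms of the gene are removed.

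Known variants of 4 genes are shown that could be tied to exons in pairs, because each variant's length equalled that of exactly 1 annotated transcript of its gene. The annotation was GENCODE vM1 on NCBIM37, which is mm9, the build of the deposited tables. Of 2440 known variants tested, 520 had such a match, and 516 of these lay inside the locus the tables give. The pairs printed have 1 member that gained and 1 that lost share in both organs, at least 1 of them by 10 points, and were chosen after their values were seen. Capitals mark bases that only the named transcript of the pair holds, and lower case marks up to 15 neighbouring bases of the spliced transcript, 5′ to 3′.
Myh11, exon of the rising variant, chr16:14198143-14198181, minus strand: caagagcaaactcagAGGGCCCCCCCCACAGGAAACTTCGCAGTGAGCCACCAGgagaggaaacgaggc
Ghr, last coding stretch of the rising variant, chr15:3277604-3277686, minus strand: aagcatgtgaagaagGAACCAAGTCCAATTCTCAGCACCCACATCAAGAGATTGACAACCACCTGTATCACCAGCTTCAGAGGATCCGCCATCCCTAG
Cacnb3, first coding stretch of the rising variant, chr15:98462910-98462951, plus strand: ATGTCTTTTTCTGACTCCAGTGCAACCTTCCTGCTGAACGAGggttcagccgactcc
Cacnb3, first coding stretch of the falling variant, chr15:98465600-98465644, plus strand: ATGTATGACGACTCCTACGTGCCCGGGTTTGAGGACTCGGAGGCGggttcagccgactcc
Ndrg2, exon of the falling variant, chr14:52530761-52530802, minus strand: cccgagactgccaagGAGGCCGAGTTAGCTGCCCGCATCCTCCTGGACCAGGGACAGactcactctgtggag

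The *Myh11* exon has 39 bases and ends the reading frame after 9 codons of its own with TGA, which gives the shorter of the known tails of this myosin. The variant with it, TCONS_00105100, held 40.2% of *Myh11* in JSMCs against 23.5% in jejunal SM tissue, and 26.2% in CSMCs against 6.87% in colonic SM tissue. The variant shorter by these 39 bases, TCONS_00105099, held 2.93% in JSMCs against 26.5% in jejunal SM tissue, and 22.7% in CSMCs against 46.2% in colonic SM tissue. Its smaller shift was -23.5 points, -32.3 points when shares were weighted by length and -40.7 points among known variants alone. The start site of the pair held 43.2% of *Myh11* in JSMCs and 50.1% in jejunal SM tissue. In CSMCs it held 48.9%, and in colonic SM tissue 53.1%. The rest lay in variants from other start sites that were not tied to either tail, so these are not tail shares of all *Myh11* RNA. Both organs thus gave shifts of the same direction for the pair, while the level of each variant differed between the organs: the variant without the exon had 110 FPKM in JSMCs and 863 FPKM in CSMCs.

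*Ghr* encodes the growth hormone receptor, and in rodents a short splice form of it makes a soluble binding protein that lacks the membrane-spanning part. The short variant TCONS_00092494, of 1213 bases, held 48.3% of *Ghr* in JSMCs against 29.5% in jejunal SM tissue, and 44.7% in CSMCs against 30.2% in colonic SM tissue. Its printed stretch adds 26 codons and a TAG stop. The receptor variant TCONS_00092490, of 4175 bases, held 14.5% in JSMCs against 43.5% in jejunal SM tissue, and 19.1% in CSMCs against 43.0% in colonic SM tissue. The short form led in both SMC libraries and the receptor form in both tissues. In the ICC libraries the receptor form had 44.9% in jejunum and 32.7% in colon.

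*Cacnb3*, the β3 subunit of voltage-dependent calcium channels, has 2 variants with different first exons and no other. The one that begins with the 14 codons printed first held 76.9% in JSMCs against 66.3% in jejunal SM tissue, and 75.4% in CSMCs against 58.3% in colonic SM tissue. The one that begins with the other 15 codons held the rest, 23.1% in JSMCs against 33.7% in jejunal SM tissue and 24.6% in CSMCs against 41.7% in colonic SM tissue. For *Ndrg2*, a member of the family of N-myc downstream regulated genes, the 42-base exon adds 14 codons in frame. Its variant held 2.63% in JSMCs against 10.5% in jejunal SM tissue, and 4.37% in CSMCs against 12.9% in colonic SM tissue. The variant that skips that exon held 51.4% in JSMCs against 39.9% in jejunal SM tissue, and 54.7% in CSMCs against 37.1% in colonic SM tissue.

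Across all 7472 variants, 466 (6.24%) shifted by 10 percentage points or more in the same direction in both organs. Of these, 226 (3.02%) had a higher and 240 (3.21%) a lower share in SMCs, and they belonged to 295 of 1661 genes (17.8%). In 161 genes at least 1 variant gained and another lost 10 points. Because shares of a gene sum to 100%, a gain in 1 variant fixes losses in others, and variants of a gene are not independent. At thresholds of 20 and 30 points 80 variants in 59 genes and 20 variants in 14 genes were left. Shifts of 10 points or more in opposite directions were found for 17 variants. In 462 of the 466 variants the 2 SMC shares lay both above or both below the 2 tissue shares, which the rule nearly fixes.

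In the jejunum alone 949 variants (12.7%) shifted by 10 points or more, and in the colon alone 812 (10.9%). The 466 shared ones were 49.1% of the jejunal and 57.4% of the colonic list. The same size of difference separated JSMCs from CSMCs for 321 variants (4.30%) and the 2 tissues for 176 variants (2.36%). The median absolute difference was 2.41 points between JSMCs and jejunal SM tissue and 2.25 points between CSMCs and colonic SM tissue, compared with 1.51 points between the 2 SMC libraries and 1.15 points between the 2 tissues. By both measures SMCs and tissue were farther apart in shares than the organs were. The shifts of both organs correlated with Pearson's r = 0.70 across the 7472 variants, a description only, since variants of a gene share their sum and the variants are common to both tables.

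**Figure D1:**
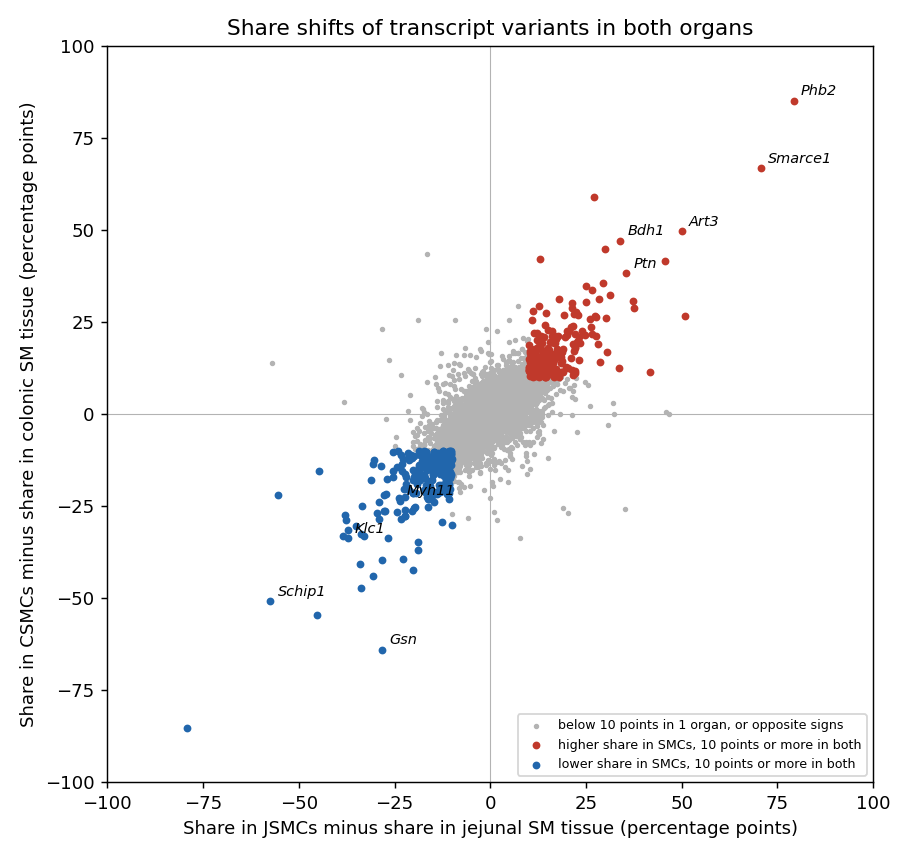
Each point is 1 of 7472 variants, with its shift in the jejunum (JSMCs minus jejunal SM tissue) on the x axis and in the colon (CSMCs minus colonic SM tissue) on the y axis, both in percentage points. The 226 red and 240 blue points shifted by 10 points or more in the same direction in both organs, and *Phb2* and *Smarce1* lie farthest out.

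The genes were ranked by the smaller of the absolute shifts of both organs in their leading variant. In the first 25 genes this value ran between 26.6 and 79.2 points, with the leading variant higher in SMCs in 10 genes and lower in 15, and it was known in 13 and new in 12 (new variants are assembled ones that share at least 1 splice junction with a known transcript). *Phb2*, which encodes a prohibitin of the inner mitochondrial membrane, stood first. Its known variant TCONS_00226993 held 84.6% in JSMCs against 5.31% in jejunal SM tissue, and 88.5% in CSMCs against 3.31% in colonic SM tissue. As FPKM this was 44.2 in JSMCs against 1.90 in jejunal SM tissue, and 38.8 in CSMCs against 1.04 in colonic SM tissue. The only other *Phb2* variant starts at the same site and is 14 bases longer. Variants that differ this little are told apart by few reads, and the tables give no interval for their FPKM. In the ICC libraries the same variant held 4.59% in jejunum and 3.23% in colon, close to the tissues, and in the library labelled jejunal PDGFRα+ cells and that of colonic PDGFRα+ cells 38.5% and 49.4%.

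Several of the 25 genes act in the nucleus. *Smarce1*, a subunit of the BAF chromatin remodelling complex, had a new variant at 70.6% in JSMCs against 0% in jejunal SM tissue, and at 70.5% in CSMCs against 3.74% in colonic SM tissue. It was not particular to SMCs, with 39.1% in jejunal ICC, 29.5% in colonic ICC and 56.0% in colonic PDGFRα+ cells. In the library labelled jejunal PDGFRα+ cells it was listed at 0%. *Ehmt2*, a histone H3 lysine methyltransferase, had a new variant at 5.00% in JSMCs against 42.0% in jejunal SM tissue, and at 2.49% in CSMCs against 34.0% in colonic SM tissue. *Dpy30*, a subunit of histone methyltransferase complexes, was almost wholly 1 known variant in tissue. This variant held 66.7% in JSMCs against 95.1% in jejunal SM tissue, and 57.4% in CSMCs against 97.0% in colonic SM tissue. *Chtf8*, a factor of sister chromatid cohesion, had its known variant at 63.8% in JSMCs against 93.3% in jejunal SM tissue, and at 67.7% in CSMCs against 94.6% in colonic SM tissue. In the ICC and PDGFRα libraries this *Chtf8* variant held 46.4% to 72.9%, also below both tissues. There the *Dpy30* variant held 89.1% to 97.0%, near the tissues, and the *Ehmt2* variant 15.1% to 33.5%. The levels of *Smarce1*, *Ehmt2* and *Dpy30* lay between 20.2 and 23.7 FPKM in all 4 libraries, just above the limit, whereas *Chtf8* had 24.5 to 28.3 FPKM.

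Adhesion, motility and transport genes made up another part of the 25. *Schip1*, which encodes a cytoskeletal adaptor that binds schwannomin, had 3 known variants from separate start sites. Its level lay between 20.8 and 23.8 FPKM in the 4 libraries, just above the limit. TCONS_00170777 held 6.84% in JSMCs against 64.3% in jejunal SM tissue, and 9.67% in CSMCs against 60.5% in colonic SM tissue. TCONS_00170776 held 81.5% in JSMCs against 35.7% in jejunal SM tissue, and 79.7% in CSMCs against 38.2% in colonic SM tissue. The leading start site of *Schip1* was thus another one in SMCs than in tissue, in both organs. The third, TCONS_00170774, had 11.7% in JSMCs against 0% in jejunal SM tissue and 10.6% in CSMCs against 1.29% in colonic SM tissue, and was listed at 0% in both ICC libraries and in both libraries labelled PDGFRα+ cells.

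*Klc1* encodes a light chain of kinesin-1, whose splice forms differ in the tail that binds cargo. All 3 known variants share a start site. The shortest of the 3, TCONS_00055442, held 23.5% in JSMCs against 60.7% in jejunal SM tissue, and 29.5% in CSMCs against 63.3% in colonic SM tissue. The longest of the 3, TCONS_00055443, held 34.8% in JSMCs against 12.8% in jejunal SM tissue, and 28.3% in CSMCs against 10.3% in colonic SM tissue. No variant held over 35% in SMCs, while 1 held over 60% in tissue. That variant, TCONS_00055442, was low in other sorted cells too, with 29.2% in jejunal ICC, 20.7% in colonic ICC and 19.7% in colonic PDGFRα+ cells. In the library labelled jejunal PDGFRα+ cells it held 64.2%. *Parva* encodes α-parvin, an actin-binding partner of integrin-linked kinase, and had 2 variants from 2 start sites. The new one held 6.24% in JSMCs against 32.9% in jejunal SM tissue, and 6.18% in CSMCs against 40.0% in colonic SM tissue. *Rap1b*, a small GTPase that regulates integrin adhesion, also had 2 variants from 2 start sites, and its known one held 33.9% in JSMCs against 71.5% in jejunal SM tissue, and 38.0% in CSMCs against 66.7% in colonic SM tissue. *Sh3pxd2a* encodes the podosome scaffold Tks5, and its leading variant held 54.0% in JSMCs against 24.1% in jejunal SM tissue, and 59.4% in CSMCs against 14.5% in colonic SM tissue. In the ICC and PDGFRα libraries this *Sh3pxd2a* variant held 40.6% to 57.9%, also above both tissues.

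*Gsn*, gelsolin, severs and caps actin filaments. The gene makes a cytoplasmic form and, from another start site, a form with a signal peptide that is secreted into plasma. The known variant with the RefSeq accession of the secreted form, NM_146120, held 5.42% in JSMCs against 33.6% in jejunal SM tissue, and 8.18% in CSMCs against 72.2% in colonic SM tissue. The variant with an accession of the cytoplasmic form, NM_001206367, held 90.3% in JSMCs against 63.3% in jejunal SM tissue, and 85.2% in CSMCs against 26.1% in colonic SM tissue. In FPKM, the secreted form had 12.0 in JSMCs against 75.6 in jejunal SM tissue and 18.2 in CSMCs against 282 in colonic SM tissue, and the cytoplasmic form 200.1 in JSMCs against 143 in jejunal SM tissue and 190 in CSMCs against 102 in colonic SM tissue. The secreted form had 97.4% in colonic PDGFRα+ cells and 71.9% in the library labelled jejunal PDGFRα+ cells, against 20.01% in jejunal and 17.2% in colonic ICC. *Dcn*, a fibroblast gene, had 53.5 FPKM in JSMCs against 437 FPKM in jejunal SM tissue, 52.7 FPKM in CSMCs against 549 FPKM in colonic SM tissue, and 2485 FPKM in colonic PDGFRα+ cells. In bulk tissue, more cells of a type and more RNA per cell cannot be told apart. The part of cell composition in the *Gsn* shift was not tested, and sorting, mouse line and pooling differ together with it.

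**Figure D2:**
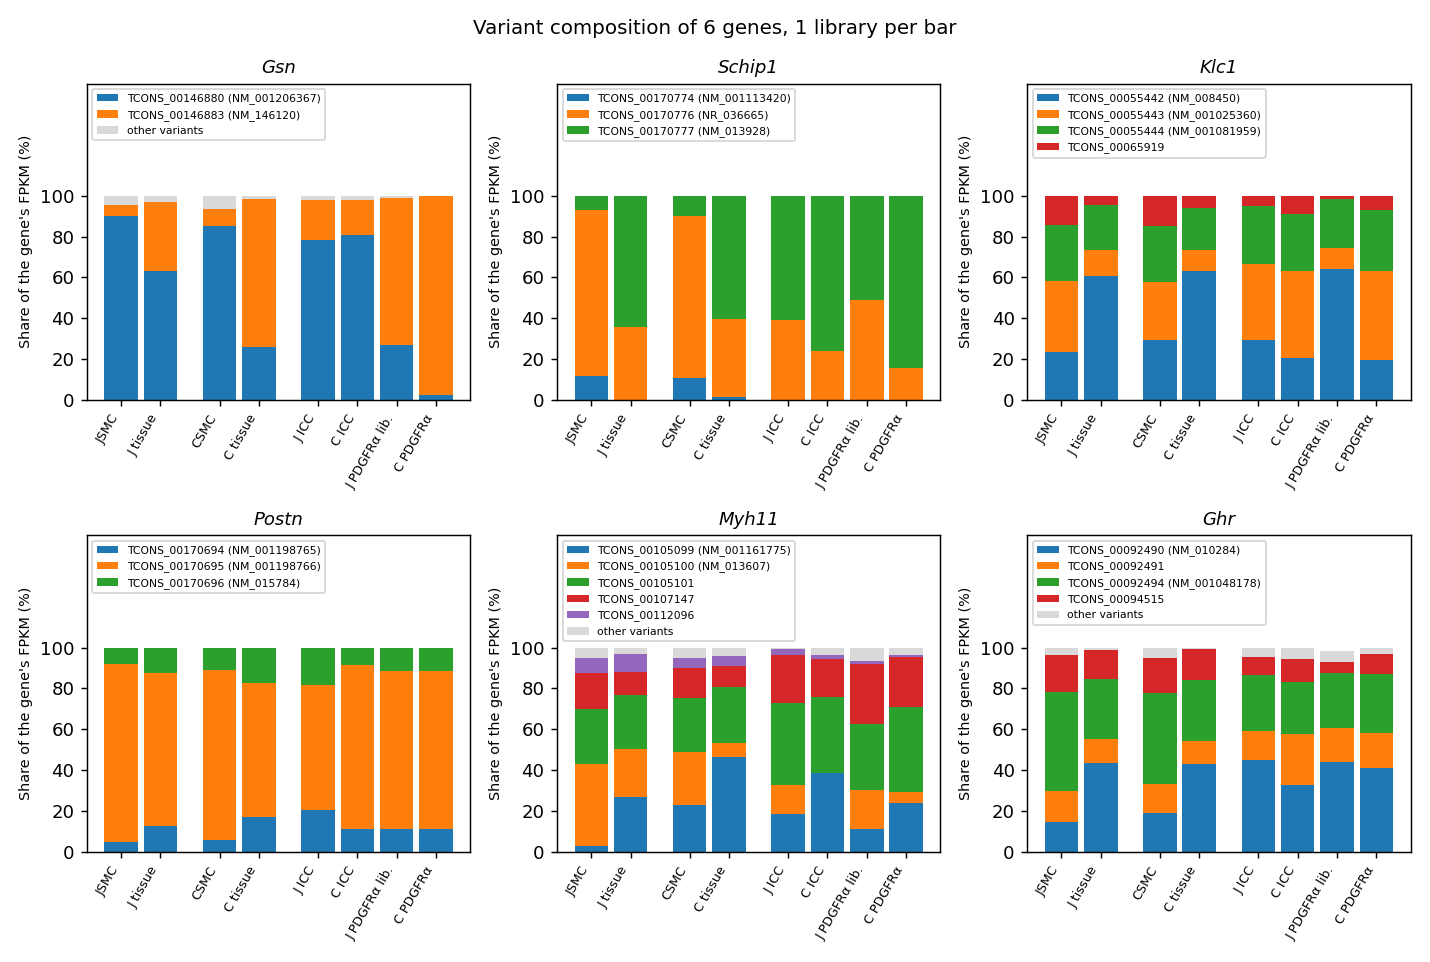
Stacked bars show the share of each variant (percent of the gene's FPKM) in 1 library per bar for 6 genes, with JSMCs and CSMCs each left of their tissue and the ICC and PDGFRα libraries at the right ("J PDGFRα lib." is the library labelled jejunal PDGFRα+ cells). The orange part of *Gsn*, the secreted form, is 5.42% in JSMCs and 8.18% in CSMCs against 33.6% in jejunal and 72.2% in colonic SM tissue.

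Metabolic and secreted factors completed the 25. *Bdh1*, a mitochondrial enzyme of ketone body metabolism, had its known variant at 97.0% in JSMCs against 63.2% in jejunal SM tissue, and at 99.0% in CSMCs against 51.8% in colonic SM tissue, while among known variants alone it had no shift. All 4 ICC and PDGFRα libraries gave this variant 96.9% or more, so the 2 tissues were the libraries that stood apart. The colonic ICC and PDGFRα shares rest on low levels, since *Bdh1* had only 3.83 FPKM in colonic ICC and 3.08 FPKM in colonic PDGFRα+ cells. *Sqrdl*, the mitochondrial sulfide quinone reductase, had a new variant at 2.26% in JSMCs against 40.7% in jejunal SM tissue, and at 4.82% in CSMCs against 37.9% in colonic SM tissue. *Scp2*, a sterol carrier protein gene, had a new variant at 0% in JSMCs against 35.0% in jejunal SM tissue, and at 3.15% in CSMCs against 33.4% in colonic SM tissue. Its smaller shift was -30.3 points, and -15.7 points when shares were weighted by length, smaller in size than the 26.6 points of the last of the 25 genes. *Dbi* encodes an acyl-CoA binding protein, and its variant NM_007830 held 28.5% in JSMCs against 0% in jejunal SM tissue, and 33.5% in CSMCs against 2.28% in colonic SM tissue. The leading *Dbi* variant starts at the same site and is 7 bases shorter. *Ptn*, the growth factor pleiotrophin, had a new variant at 79.9% in JSMCs against 44.3% in jejunal SM tissue, and at 79.1% in CSMCs against 40.8% in colonic SM tissue. Its variant TCONS_00232613 was at 2.22% in JSMCs against 36.3% in jejunal SM tissue, and at 0% in CSMCs against 40.7% in colonic SM tissue.

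Membrane proteins were among them too. *Sdc3*, a heparan sulfate proteoglycan of the cell surface, had its known variant at 52.9% in JSMCs against 83.5% in jejunal SM tissue, and at 50.8% in CSMCs against 94.8% in colonic SM tissue. The lost *Sdc3* share went to different variants in the 2 organs: TCONS_00203218 had 46.8% in JSMCs and 0% in CSMCs, and TCONS_00185096 had 0% in JSMCs and 48.4% in CSMCs. *Art3*, of the ADP-ribosyltransferase family, had a new variant at 60.7% in JSMCs against 10.7% in jejunal SM tissue, and at 49.7% in CSMCs against 0% in colonic SM tissue. *Clptm1* had a new variant at 31.3% in JSMCs against 0.0862% in jejunal SM tissue, and at 32.3% in CSMCs against 0% in colonic SM tissue. This *Clptm1* variant was not particular to SMCs, with 22.3% in jejunal and 12.8% in colonic ICC. It held 54.7% in the library labelled jejunal PDGFRα+ cells and 36.3% in colonic PDGFRα+ cells. Outside this group stood *Lrrfip1*. A new variant of it held 38.3% in JSMCs against 8.93% in jejunal SM tissue, and 40.2% in CSMCs against 4.53% in colonic SM tissue.

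**Figure D3:**
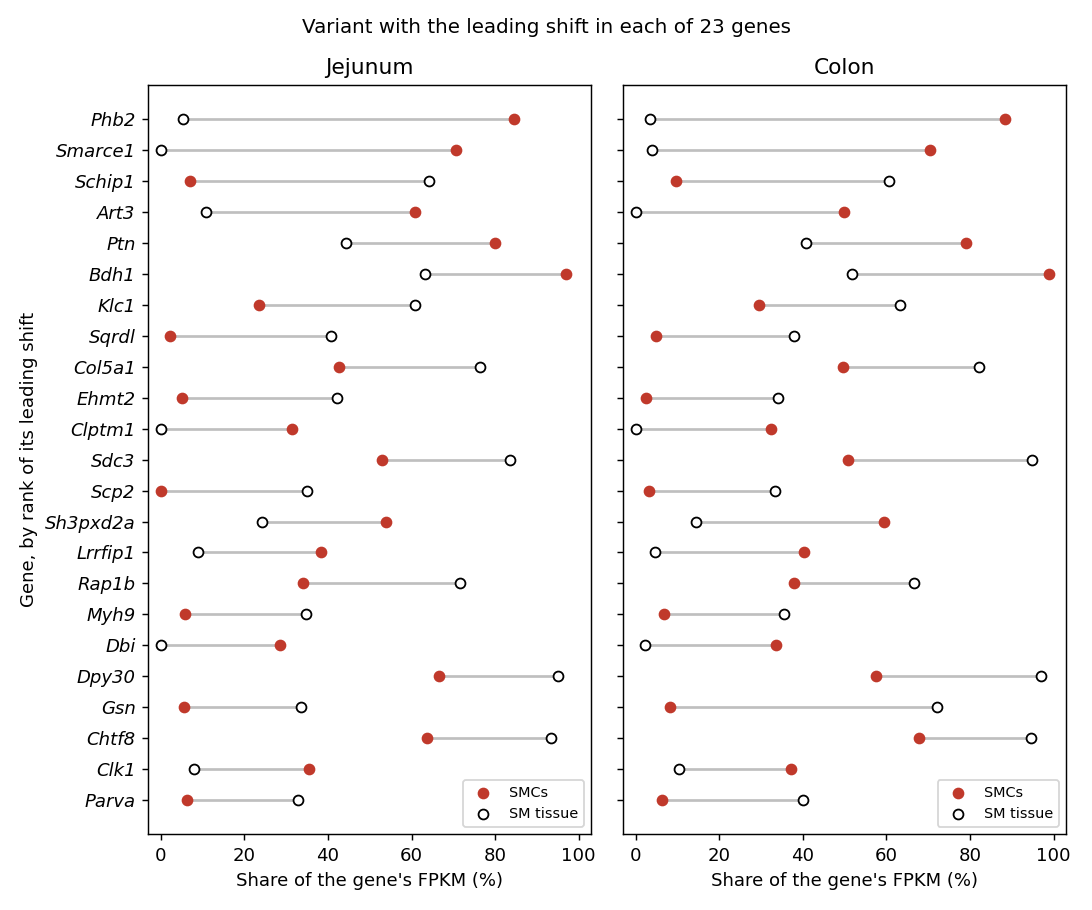
The share of the leading variant in each of 23 of the first 25 genes (percent of the gene's FPKM) is drawn for SMCs (red) and SM tissue (open), jejunum at the left and colon at the right, 1 library per point. The leading variant is higher in SMCs in 10 genes and lower in 13, and *Phb2* has the longest line in both organs.

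Genes of 7 functional lists were read against the 17.8% of all genes tested that had a variant past 10 points in both organs. This share is not matched for variants per gene, and of genes with 8 or more variants 28.7% had one. The lists were chosen with earlier results of these data known. Of the contractile apparatus, 5 of 16 measured genes had one (31.3%). *Myh9*, a nonmuscle myosin heavy chain, had its known variant at 5.83% in JSMCs against 34.8% in jejunal SM tissue, and at 6.80% in CSMCs against 35.4% in colonic SM tissue. A new *Myh9* variant from the same start site, 51 bases longer, had 26.7% in JSMCs against 14.9% in jejunal SM tissue, and 25.1% in CSMCs against 12.1% in colonic SM tissue. It held between 4.31% and 5.88% in the ICC and PDGFRα libraries. *Smtn*, smoothelin, had a new variant at 24.2% in JSMCs against 7.78% in jejunal SM tissue, and at 31.4% in CSMCs against 16.4% in colonic SM tissue, and its smaller shift was 9.71 points when shares were weighted by length. The α-actin gene *Acta2* had a new variant at 36.2% in JSMCs against 21.7% in jejunal SM tissue, and at 36.5% in CSMCs against 21.1% in colonic SM tissue. *Synpo2*, an actin-bundling protein of Z-discs and dense bodies, had its known variant at 26.9% in JSMCs against 41.2% in jejunal SM tissue, and at 15.5% in CSMCs against 26.2% in colonic SM tissue. For *Synpo2* the JSMC share lay above the colonic tissue share, so the groups overlap.

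In adhesion and cytoskeleton, 5 of 32 measured genes passed (15.6%), near the share of all genes. Besides *Parva* these were *Zyx*, *Pdlim7*, *Vcl* and *Dst*. *Zyx*, zyxin of focal adhesions, had a new variant at 16.7% in JSMCs against 38.9% in jejunal SM tissue, and at 16.1% in CSMCs against 43.8% in colonic SM tissue. *Vcl*, vinculin, which links integrins to actin, had its known variant at 91.7% in JSMCs against 77.7% in jejunal SM tissue, and at 92.7% in CSMCs against 80.6% in colonic SM tissue. The known variant of *Pdlim7*, a PDZ and LIM domain protein, had 30.8% in JSMCs against 47.7% in jejunal SM tissue, and 37.6% in CSMCs against 51.8% in colonic SM tissue. A new variant of the plakin gene *Dst* had 43.9% in JSMCs against 21.9% in jejunal SM tissue, and 35.8% in CSMCs against 24.8% in colonic SM tissue. Weighted by length its smaller shift was 6.33 points, and among known variants alone that of *Pdlim7* was -6.02 points.

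Calcium, channel and contraction signalling genes had 13 of 34 measured past 10 points (38.2%), the highest of the 7 shares. The median of the smaller shift over this list was 7.39 points, compared with 4.27 points over all genes. *Cacna2d1*, the α2δ1 subunit of voltage-dependent calcium channels, had a new variant at 28.5% in JSMCs against 5.51% in jejunal SM tissue, and at 25.9% in CSMCs against 6.20% in colonic SM tissue, a shift of 9.78 points in the smaller case when weighted by length. *Chrm2*, the M2 muscarinic receptor, had a new variant at 27.2% in JSMCs against 43.5% in jejunal SM tissue, and at 10.0% in CSMCs against 32.7% in colonic SM tissue. *Ppp1r12b*, a regulatory subunit of myosin phosphatase, had a leading variant at 71.8% in JSMCs against 87.8% in jejunal SM tissue, and at 73.4% in CSMCs against 87.4% in colonic SM tissue. *Stim1*, the calcium sensor of the endoplasmic reticulum, had a new variant at 22.4% in JSMCs against 9.61% in jejunal SM tissue, and at 26.2% in CSMCs against 11.2% in colonic SM tissue. In the other 8 genes, *Slc8a1*, *Kcnma1*, *Kcnmb1*, *Pde5a*, *Cacnb3*, *Camk2d*, *Kcnj8* and *Cacna1c*, the smaller shift was between 10.3 and 11.8 points in size, just past the limit.

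Of extracellular matrix and secreted genes 5 of 28 passed (17.9%), as in all genes. *Col5a1*, the α1 chain of type V collagen, had its known variant at 42.6% in JSMCs against 76.4% in jejunal SM tissue, and at 49.7% in CSMCs against 82.2% in colonic SM tissue. A longer variant of 9081 bases from another start site rose to 45.8% in JSMCs against 20.9% in jejunal SM tissue, and to 44.5% in CSMCs against 14.0% in colonic SM tissue. *Fn1*, fibronectin, had a new variant at 33.2% in JSMCs against 55.5% in jejunal SM tissue, and at 32.4% in CSMCs against 55.0% in colonic SM tissue. *Fbn1*, fibrillin of elastic microfibrils, had a new variant at 19.5% in JSMCs against 38.5% in jejunal SM tissue, and at 6.50% in CSMCs against 43.3% in colonic SM tissue. The laminin chain gene *Lamc1* had its known variant at 52.6% in JSMCs against 72.0% in jejunal SM tissue, and at 55.3% in CSMCs against 73.6% in colonic SM tissue. *Postn*, periostin, has 3 known variants from 1 start site, and the shortest, of 3130 bases, rose to 87.1% in JSMCs against 74.9% in jejunal SM tissue, and to 83.3% in CSMCs against 65.7% in colonic SM tissue.

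The list of RNA-binding splicing regulators had 10 of 39 genes past 10 points (25.6%). *Clk1*, a kinase that phosphorylates SR splicing factors, had a new variant of 1160 bases at 35.4% in JSMCs against 8.01% in jejunal SM tissue, and at 37.1% in CSMCs against 10.4% in colonic SM tissue, and its smaller shift was 26.7 points, or 13.3 points when shares were weighted by length. Its known coding variant NM_001042634 had 11.8% in JSMCs against 30.5% in jejunal SM tissue, and 12.8% in CSMCs against 28.6% in colonic SM tissue. Known variants of 3 SR protein genes, which promote exon inclusion, were all lower in SMCs than in tissue. That of *Srsf7* held 2.53% in JSMCs against 21.1% in jejunal SM tissue, and 2.94% in CSMCs against 18.9% in colonic SM tissue. That of *Srsf11* held 23.8% in JSMCs against 40.2% in jejunal SM tissue, and 22.3% in CSMCs against 37.4% in colonic SM tissue. That of *Srsf3* held 48.8% in JSMCs against 67.4% in jejunal SM tissue, and 47.9% in CSMCs against 62.3% in colonic SM tissue, but its smaller shift was -2.39 points among known variants alone. These 3 low shares were not particular to SMCs, since the ICC and PDGFRα libraries also lay below both tissues. Those libraries gave 2.65% to 16.8% for *Srsf7*, 11.5% to 19.4% for *Srsf11* and 37.4% to 51.5% for *Srsf3*. *Luc7l2*, a U1 snRNP-associated factor, had a known variant at 0% in both SMC libraries, against 24.4% in jejunal and 14.3% in colonic SM tissue. The remaining 5 genes, *Srsf1*, *Hnrnpd*, *Rbpms*, *Rbfox2* and *Qk*, had smaller shifts of 10.2 to 14.1 points in size. As levels, *Rbpms*, a splicing regulator of differentiated smooth muscle, had 331 FPKM in JSMCs against 217 FPKM in jejunal SM tissue and 220 FPKM in CSMCs against 127 FPKM in colonic SM tissue, and *Ptbp1*, which represses muscle exons, had 51.0 FPKM in JSMCs against 39.6 FPKM in jejunal SM tissue and 44.6 FPKM in CSMCs against 39.3 FPKM in colonic SM tissue. Both genes were picked from the list, whose levels went either way. *Mbnl1*, *Qk*, *Rbfox2* and *Celf2* of the same list were lower in SMCs than in tissue in both organs. Whether these levels bear on the shifts was not tested.

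Transcription factors of smooth muscle had 4 of 17 genes past 10 points (23.5%). *Srf*, serum response factor, had its known variant at 45.0% in JSMCs against 58.1% in jejunal SM tissue, and at 50.4% in CSMCs against 62.7% in colonic SM tissue. *Tcf12*, an E protein, had a new variant at 0% in both SMC libraries, against 14.7% in jejunal and 14.9% in colonic SM tissue. *Tead1*, which binds YAP, had a new variant at 55.6% in JSMCs against 41.4% in jejunal SM tissue, and at 58.1% in CSMCs against 42.0% in colonic SM tissue. A new variant of *Mef2a*, a MADS-box factor, had 32.4% in JSMCs against 14.4% in jejunal SM tissue, and 22.2% in CSMCs against 12.2% in colonic SM tissue.

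In metabolism and housekeeping 7 of 26 genes passed (26.9%). *Pkm2*, pyruvate kinase, had a new variant at 23.6% in JSMCs against 45.7% in jejunal SM tissue, and at 18.2% in CSMCs against 44.3% in colonic SM tissue. Its known variant had 44.3% in JSMCs against 24.2% in jejunal SM tissue, and 49.0% in CSMCs against 26.5% in colonic SM tissue. *Atp5a1*, the α subunit of ATP synthase, had a new variant at 15.7% in JSMCs against 34.9% in jejunal SM tissue, and at 14.5% in CSMCs against 33.5% in colonic SM tissue. *Ndufs1*, of respiratory complex I, had a known variant at 49.9% in JSMCs against 68.1% in jejunal SM tissue, and at 52.2% in CSMCs against 66.0% in colonic SM tissue, and the ribosomal protein gene *Rpl13a* had its known variant at 40.6% in JSMCs against 56.7% in jejunal SM tissue, and at 44.5% in CSMCs against 55.7% in colonic SM tissue. *Ywhaz* and *Clta* passed too, with smaller shifts of 10.7 and 10.1 points. Of 3 dissociation and immediate early genes measured, *Nr4a1* passed, with its known variant at 74.2% in JSMCs against 84.2% in jejunal SM tissue and at 67.9% in CSMCs against 98.1% in colonic SM tissue.

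**Figure D4:**
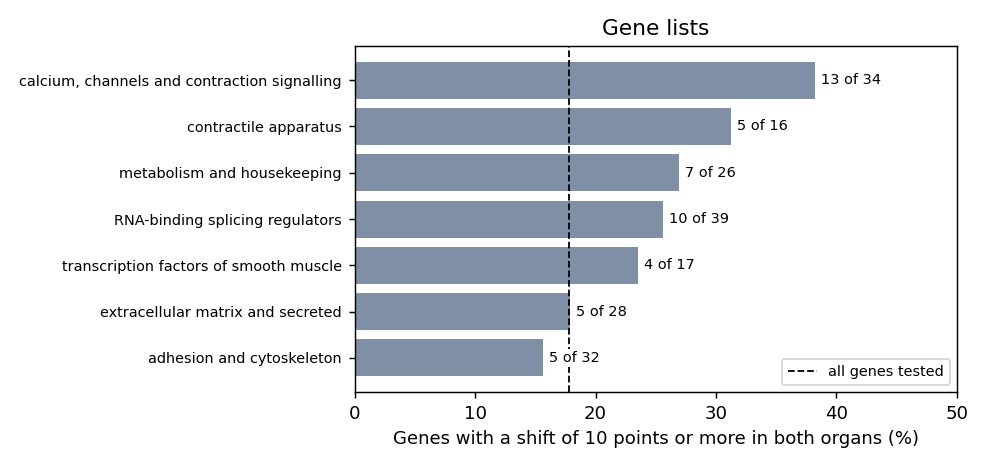
Bars give the percentage of measured genes of each list that had at least 1 variant shifted by 10 points or more in the same direction in both organs, with the counts beside them, and the dashed line is the 17.8% of all 1661 genes tested. This line is not matched for the number of variants per gene. The calcium, channel and contraction signalling list is highest with 13 of 34 genes, and adhesion and cytoskeleton lowest with 5 of 32.

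A shift can come from another start site or from splicing and 3′ ends behind 1 start site. Of 4832 start sites in the 1405 genes with 2 or more, 328 (6.79%) in 209 genes shifted by 10 points or more in the same direction in both organs. Among the 295 genes with a variant past 10 points, 189 also had a start site past 10 points and 106 (35.9%) did not. Of these 295 genes, 33 were among the 256 genes with only 1 start site. Start sites are those of the authors' assembly, and an assembled transcript that is cut short at its 5′ end counts as a start site there.

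The variant with the highest share was a different one in SMCs than in tissue in 203 genes in the jejunum and in 182 genes in the colon. In 91 genes (5.48%) the same pair of variants changed places in both organs, but in only 11 of them was the leader ahead by 10 points or more in every library, and with known variants only 8 genes were counted. Of the 25 first genes, *Phb2*, *Art3*, *Schip1*, *Clptm1*, *Lrrfip1*, *Rap1b* and *Myh9* were among these 91, and *Phb2*, *Schip1* and *Rap1b* also among the 11. The *Myh9* variant that led in SMCs gained no more than 2.46 points in the organ with the smaller gain. By comparison, the leading variant differed between JSMCs and CSMCs in 123 genes and between the 2 tissues in 89 genes.

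Among known variants falls outnumbered rises, and among new variants rises outnumbered falls. Of 2440 known variants, 76 (3.11%) had a higher and 132 (5.41%) a lower share in SMCs by 10 points or more in both organs. Of 5032 new variants, 150 (2.98%) had a higher and 108 (2.15%) a lower share. Variants that rose had a median length of 2422 bases and those that fell of 2764 bases, compared with 2680 bases for all tested.

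**Figure D5:**
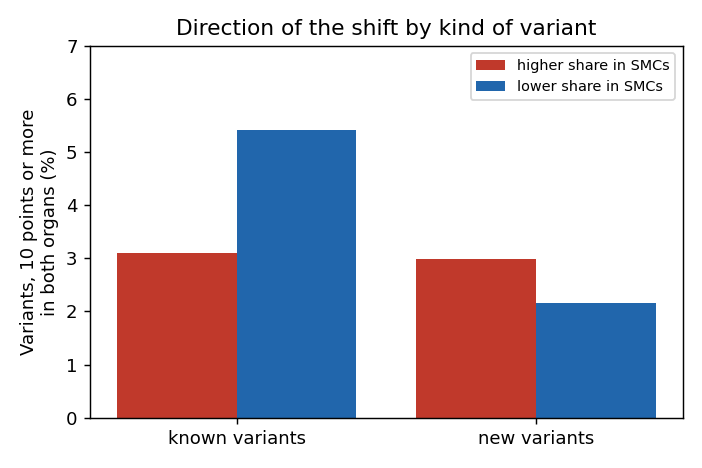
Bars give the percentage of known and of new variants that shifted by 10 points or more in both organs, red for a higher and blue for a lower share in SMCs. Known variants had 3.11% higher and 5.41% lower, and new variants 2.98% higher and 2.15% lower.

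The mean transcript length of a gene, weighted by share, changed little. Its median log2 ratio, SMCs over tissue, was -0.0026 in the jejunum and -0.0024 in the colon. It was shorter in SMCs in 960 genes and longer in 684 in the jejunum, and shorter in 989 and longer in 655 in the colon. Both organs gave a shorter length in 775 genes and a longer one in 464. *Sod2*, the mitochondrial superoxide dismutase, was among those with the strongest shortening and is named after its values were seen. Its variant of 878 bases held 69.6% in JSMCs against 45.7% in jejunal SM tissue, and 68.0% in CSMCs against 45.5% in colonic SM tissue. The variant of 5978 bases from the same start site held 30.1% in JSMCs against 53.8% in jejunal SM tissue, and 31.1% in CSMCs against 54.3% in colonic SM tissue.

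The share of variants past 10 points was 6.49% where the gene's lowest level in the 4 libraries was 20 to 50 FPKM, 5.73% at 50 to 100 FPKM and 5.68% at 100 FPKM or more. Genes with more variants had more chances to pass: 8.87% of genes with 2 variants, 17.3% with 3 to 4, 20.8% with 5 to 7 and 28.7% of genes with 8 or more had a variant past the limit. Lists whose genes have many variants therefore start from a higher share. At the limit itself, the variants just inside 10 points belonged to *Plec*, *Slc12a2*, *Srsf3*, *Itm2b* and *Nr4a1*. Those just outside belonged to *Prpf8*, *Lmna*, *Ube2b*, *Fbxw2* and *Ptprs*. The *Itm2b* variant, for example, had 48.1% in JSMCs against 58.5% in jejunal SM tissue and 48.0% in CSMCs against 58.0% in colonic SM tissue, and the *Lmna* variant 45.4% in JSMCs against 55.4% in jejunal SM tissue and 54.1% in CSMCs against 65.9% in colonic SM tissue. The gene nearest above the level limit was *Slc1a5*, whose lowest level was 20.005 FPKM, and the nearest below was *Tbcb* with 19.992 FPKM.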

How the data were processed

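RNA of sorted cells and SM tissue was isolated with mirVana kits and made into TruSeq libraries per the labels. The authors aligned paired reads to mm9 with TopHat 1.4.1, assembled transcripts with Cufflinks 2.0.2, and deposited FPKM per transcript variant in separate jejunal and colonic tables of 70143 and 68502 variants. The deposited FPKM carry no counts, depth or intervals, so the counting error of a share is unknown. The mucosal table was not used.

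Values under 0.025 FPKM, the cutoff in the study's methods, were set to 0. Shares were taken within a gene symbol and library, so library scaling cancels. Variants in both tables were matched by tracking ID. A shift of 10 points or more with the same sign in both organs was counted. Named are the 25 first genes by the smaller shift, the first 5 past 10 points in each functional list, *Myh11*, the 5 variants on each side of the limit and the 5 with the largest opposite shifts. Exceptions are stated, and 4 genes the rule or the sequence choice would name are not reported here. The members and lists were chosen with earlier results of these data known. Exon sequences came from GENCODE vM1 transcripts. The steps were tested on simulated data. Alternatives were other cutoffs, level limits, thresholds, known variants only, grouping by the assembly's gene ID, shares of FPKM times length, and variants absent from a table set to 0. Tables were computed with pandas 2.3.3 on numpy 2.4.6 (Python 3.11.15) and drawn with matplotlib 3.10.9.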

Additional observations from a re-analysis of the deposited data

Results flagged for a closer look

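The 5 variants with the largest shifts of opposite sign stand out because the jejunal pair of libraries moved one way and the colonic pair the other. The difference between the organs was not tested, since each value is 1 library. A variant of *B3galnt1*, a glycosyltransferase gene, had 43.8% in JSMCs against 8.69% in jejunal SM tissue, and 0.111% in CSMCs against 26.0% in colonic SM tissue, so that the jejunal shift minus the colonic one was 60.9 points. For *BC004004* the variant TCONS_00126341 had 37.3% in JSMCs against 65.5% in jejunal SM tissue and 56.0% in CSMCs against 32.8% in colonic SM tissue, a difference of -51.4 points. TCONS_00127606 of the same gene had 20.4% in JSMCs against 0% in jejunal SM tissue and 0% in CSMCs against 26.9% in colonic SM tissue, a difference of 47.3 points. *Tmem106b*, which encodes a lysosomal membrane protein, has 2 of the 5, which start at the same site and differ by 1 base in length. As with *Phb2*, variants that differ this little are told apart by few reads. TCONS_00239270 had 96.7% in JSMCs against 77.7% in jejunal SM tissue and 61.4% in CSMCs against 86.8% in colonic SM tissue, a difference of 44.5 points. TCONS_00226044 had 3.29% in JSMCs against 22.2% in jejunal SM tissue and 38.6% in CSMCs against 13.2% in colonic SM tissue, a difference of -44.3 points.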

How the results depend on the processing

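The count of 466 variants past 10 points in both organs was 1081, 138 and 54 at level limits of 10, 50 and 100 FPKM, 84 with known variants only, and 1356, 80 and 20 at 5, 20 and 30 points. It stayed between 365 and 476 under no cutoff, a cutoff of 1 FPKM, grouping by the assembly's gene ID, shares of FPKM times length, absent variants set to 0, and a 2-fold change of share. At level limits of 10, 50 and 100 FPKM, same-sign variants numbered 10242, 1705 and 705 in place of 5077, genes with a changed leading variant 195, 34 and 12 in place of 91, and start sites 779, 93 and 32 in place of 328. Fewer genes enter at a higher limit or with known variants only, so these counts cannot be read as shares. The 54 variants at 100 FPKM were 5.68% of 951, compared with 6.24% of 7472 in the main setting. For the other counts the number tested is not given. Only 11 of the 91 changes of the leading variant were counted when the leader had to be ahead by 10 points in every library, and 8 with known variants only. The median log2 length change was -0.0040 in the jejunum and -0.0048 in the colon at 10 FPKM, -0.0016 in the jejunum at 50 FPKM, -0.0018 in the colon at 100 FPKM, and 0 in both with known variants only. Of 59 named variants past 10 points, 54 stayed past it on FPKM times length and 59 without a cutoff. The 5 that did not were variants of *Cacna2d1*, *Slc12a2*, *Smtn*, *Srsf3* and *Dst*, at 9.78, 8.77, 9.71, 8.16 and 6.33 points. With known variants only 9 of the 59 could be measured and 6 stayed past it. The 3 that did not were of *Bdh1*, *Srsf3* and *Pdlim7*, at 0, -2.39 and -6.02 points. By over 1.5 times, but still past 10 points, moved *Scp2* to -15.7 and *Clk1* to 13.3 points on FPKM times length, and *Myh11* to -40.7 points with known variants only. No named variant changed direction under these 3 alternatives. Each condition has 1 library, so no library could be left out. The organs pair each SMC library with its tissue, and both organs' shifts are given side by side with no test fitted over these 2 pairs. The study gives a range of total reads, but without counts per variant the limit that depth sets on a share is unknown.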
